A study of Homo sapiens with 16 samples.

Results

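Copper transport in HAP1 cells was examined through 10 genes that carry copper into, through and out of the cell, across 4 groups of libraries. The genes were the copper importer SLC31A1 (CTR1) and its relative SLC31A2, the cytosolic chaperones ATOX1 and CCS, the copper pumps ATP7A and ATP7B, and COX17, SCO1, SCO2 and COX11, which pass copper to cytochrome c oxidase. They were taken by symbol from the table of counts, whatever their values, and make up 10 of its 33121 entries. All 10 were among the 15569 genes that passed the filter on low counts. HAP1 is a near-haploid human cell line, and its cultures were grown in IMDM with fetal bovine serum. Poly-A RNA was sequenced in 16 libraries, 4 in each group, as paired reads of 100 bases on a DNBseq instrument. The SLC30A10 knockout (genotype SLC30A10_delta) lacks a manganese exporter, and its control set is labelled SLC30A10+/+. A second knockout lacks another gene and has its own control set, called the second control set. The control sets share one cell line identifier in the labels. Each knockout has an identifier of its own, and the labels give neither a number of clones nor a treatment. The labels do not say whether the 4 libraries of a group came from separate cultures, so p-values measure the spread between these libraries.

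Copper is an essential cofactor that becomes toxic when it is free. It enters through SLC31A1 as the reduced ion and is handed on by small chaperones. ATOX1 delivers it to ATP7A and ATP7B, ATPases of the Golgi that load secreted enzymes and export excess copper, and CCS delivers it to superoxide dismutase. In mitochondria COX17 passes copper to SCO1 and SCO2, which serve one copper centre of cytochrome c oxidase (complex IV), and to COX11, which serves the other. Much of the control of these proteins acts on their location and stability, which RNA counts do not measure.

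The library totals ran from 16058856 to 16648151 counts. SLC30A10 itself was barely expressed, with 3 to 11 counts per library in its knockout and 6 to 9 in its control set, so its RNA did not show the deletion and the groups are named by their labels. In RNA from whole cultures, fewer cells of a kind and less RNA per cell cannot be told apart.

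Few of the 10 genes differed between a knockout and its own control set, and the differences were small. A gene was called where edgeR's quasi-likelihood test gave a Benjamini-Hochberg adjusted p under 0.05. In the SLC30A10 knockout, 2 of 10 were called, ATP7A and COX11, both higher, while 41.4% of all tested genes were called. For the second knockout, 0 of 10 were called by edgeR and 0 by DESeq2, and 1 had an unadjusted p under 0.05, while 13.7% of all tested genes were called. The median absolute log2 difference of the 10 genes was 0.10 in the SLC30A10 knockout and 0.08 in the other. Over all tested genes it was 0.16 and 0.09. The test of one knockout effect against the other called 2 of 10, ATP7A and ATOX1, against 31.3% of all genes. The comparison of the SLC30A10 control set with the second control set called 4 of 10, ATP7A, ATP7B, SCO1 and SCO2, against 39.3% of all genes. Shares of 2 and 4 in 10 are thus near or under the background in each of these comparisons. The knockout and control libraries did not overlap at all for 2 of the 10 genes in the SLC30A10 experiment (38.3% of all tested genes) and for 1 in the second (16.3%). Between the control sets this held for 3 of the 10 (36.3%).

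**Figure D1:**
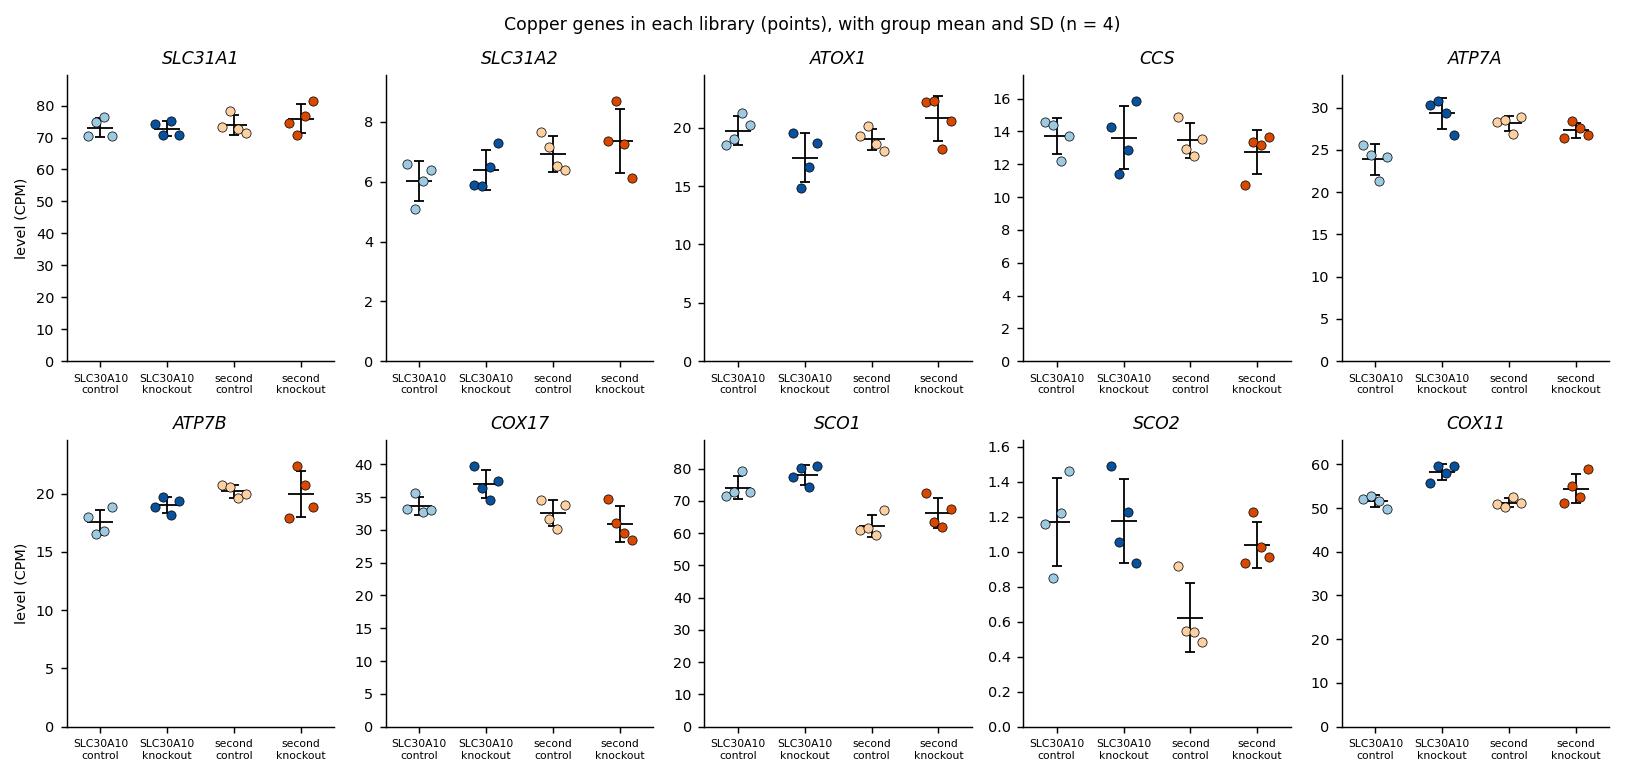
Level of each copper gene in counts per 1000000 (CPM, linear axes from 0, a scale of its own for each gene) in the 16 libraries; points are libraries, the long bar is the group mean and the whiskers are 1 SD (n = 4). ATP7A lies at 21.3 to 25.6 CPM in the SLC30A10 control set and at 26.4 CPM or more in every other library, and SCO2 is the lowest gene at 1.49 CPM or less throughout.

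Levels between genes were compared per length, as CPM per kilobase of a representative GENCODE transcript, over all 16 libraries. COX17 was highest, at 49.1 ± 4.39 (SD, n = 16), followed by ATOX1 at 39.4 ± 3.97, and their ranges overlapped. Both are very small proteins with short transcripts. COX11 (21.6 ± 1.39) and SLC31A1 (15.6 ± 0.677) came next, and each lay above the following gene in every library. CCS (9.36 ± 0.912) and SCO1 (7.31 ± 0.754) overlapped. At the lower end, ATP7A at 3.20 ± 0.289 overlapped both SLC31A2 at 3.74 ± 0.484 and ATP7B at 2.89 ± 0.231, lying under the first in 13 of 16 libraries and above the other in 14. SLC31A2 lay above ATP7B in all 16. SCO2 was lowest at 1.01 ± 0.303 and lay under ATP7B in every library. By this measure ATOX1 lay above the pumps it serves in every library. The order rests on the transcript chosen for each gene, while counts were made per gene. For ATOX1 that transcript has 488 bases, and all its annotated exons together have 5239. For SLC31A1 these are 4744 and 5127. Other lengths were not used. The importer SLC31A1 had the smallest spread over the 16 libraries, a coefficient of variation of 4.35%, and SCO2 the largest, 30.0%. These genes also had the highest and the lowest mean count of the 10, 1208 and 16.4. The part of counting error in these spreads was not tested.

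SLC31A1, the high-affinity importer, was called in none of the 4 comparisons, by edgeR or by DESeq2. Its gene lies on chromosome 9 (GRCh38, GENCODE, chr9:113221562-113264492, plus strand). It measured 74.3, 70.7, 75.1 and 70.8 CPM in the SLC30A10 knockout and 70.6, 74.8, 76.3 and 70.5 CPM in its control set. The second knockout had 74.4, 70.6, 76.7 and 81.5 CPM against 73.4, 78.4, 72.7 and 71.4 CPM. All 4 groups overlapped. The log2 difference was -0.01 in the SLC30A10 knockout (95% interval -0.10 to 0.09) and 0.04 in the second (-0.06 to 0.13), and neither was called. Its promoter is shown because the gene is the entry point of copper and had the smallest spread of the 10. The 250 bases before the RefSeq start (chr9:113221294-113221543, plus strand, GRCh38.p14) read, with GC boxes in capitals:
SLC31A1: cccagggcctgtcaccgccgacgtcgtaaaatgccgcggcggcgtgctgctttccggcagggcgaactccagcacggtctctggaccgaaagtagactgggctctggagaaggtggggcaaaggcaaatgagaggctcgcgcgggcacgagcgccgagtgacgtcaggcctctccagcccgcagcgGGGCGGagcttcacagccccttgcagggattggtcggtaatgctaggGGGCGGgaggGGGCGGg
The GC box searched was GGGCGG on both strands, the core bound by SP1-type factors, and it occurs 3 times. It is found in 42.6% of the 35116 windows of 250 bases in the RefSeq promoter table. The core of the metal response element, TGCACNC or TGCGCNC on both strands, has no match in this window and occurs in 24.8% of all.

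SLC31A2, a relative of SLC31A1 found in endosomes and lysosomes, lies near it on the same strand (chr9:113150942-113164137). It had 5.90, 5.84, 6.50 and 7.29 CPM in the SLC30A10 knockout and 6.58, 5.10, 6.04 and 6.40 CPM in its control set, which overlap. The difference was 0.08 ± 0.12 (log2 ± SE) there and 0.09 ± 0.11 in the second knockout, and neither was called. Its 84 to 142 counts per library leave an interval of -0.16 to 0.33 for the SLC30A10 knockout. The transcript of SLC31A2 shares 1579 bases (88.5%) with FKBP15 on the opposite strand, and whether the counting used strand is not given in the sources used here. Without strand, reads within the shared bases cannot be told apart by gene. FKBP15 fell by 0.25 on the log2 scale in the SLC30A10 knockout (edgeR adjusted p = 0.00041).

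ATOX1, the chaperone that feeds both copper pumps, had the lower values in the SLC30A10 knockout without passing the test. The gene is on chromosome 5 (chr5:151742316-151772532, minus strand). It measured 19.5, 14.9, 16.6 and 18.7 CPM in the SLC30A10 knockout and 18.5, 19.0, 21.3 and 20.2 CPM in the control set. Replicates 2 and 3 of the knockout lay below every control library and replicates 1 and 4 within their range. The difference was -0.18 ± 0.08 (edgeR adjusted p = 0.0784). In the second experiment ATOX1 had 22.2, 22.3, 18.2 and 20.6 CPM in the knockout and 19.3, 20.1, 18.6 and 17.98 CPM in the control set. That difference was 0.13 ± 0.08 (adjusted p = 0.324, edgeR), again with overlapping groups. The effects lay on either side of 0, and the test of one against the other passed, at -0.31 ± 0.12 (edgeR adjusted p = 0.0395). This call was lost when any of 8 of the 16 libraries was left out singly, with adjusted p up to 0.0983, namely replicates 2 and 3 of the SLC30A10 knockout, 3 and 4 of its control set, 3 and 4 of the second control set and 1 and 2 of the second knockout.

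CCS, the copper chaperone of superoxide dismutase (chr11:66592821-66606019, plus strand), was not called in any of the 4 comparisons either. Its group means were 13.6 ± 1.90 CPM in the SLC30A10 knockout and 13.7 ± 1.08 CPM in its control set (SD, n = 4). In the second experiment they were 12.7 ± 1.36 and 13.5 ± 1.04 CPM. The log2 difference of -0.01 in the SLC30A10 knockout has an interval of -0.21 to 0.19. CCS shares 263 bases of its transcript (18.4%) with CCDC87 on the opposite strand, which had at most 8 counts in any library. SOD1, the enzyme that CCS loads, rose in the SLC30A10 knockout from 258.7 ± 4.58 to 302.3 ± 11.5 CPM, a log2 difference of 0.22 ± 0.04 (edgeR adjusted p = 7.49e-05). Against the second control set it was 0.13 (edgeR adjusted p = 0.00995).

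ATP7A was the copper gene with the strongest test result in the SLC30A10 knockout. It encodes the pump mutated in Menkes disease and lies on the long arm of the X chromosome (chrX:77910656-78050395, plus strand). The knockout libraries had 30.3, 30.8, 29.4 and 26.8 CPM and the control libraries 25.6, 24.4, 21.3 and 24.2 CPM. Every knockout library lay above every library of its control set. The difference was 0.30 ± 0.06 on the log2 scale, a 1.23-fold rise (95% interval 1.12 to 1.34), with an edgeR adjusted p of 0.000415. The call held with each of the 16 libraries left out in turn, with adjusted p up to 0.0025 (edgeR). In the second experiment ATP7A had 26.4, 28.5, 27.6 and 26.7 CPM in the knockout and 28.3, 28.6, 26.8 and 28.9 CPM in the control set. These overlap, and the difference of -0.04 ± 0.06 was not called. The test of one effect against the other gave 0.34 ± 0.09 (edgeR adjusted p = 0.00398).

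The rise depends on which control set is used. The SLC30A10 control libraries were the lowest of all 16, and they lay under the second control set by 0.24 ± 0.06 on the log2 scale (edgeR adjusted p = 0.00395). Set against the second control set, the SLC30A10 knockout differed in ATP7A by 0.06 ± 0.06 (edgeR adjusted p = 0.466). In the same comparison 4 of the 10 genes were called, COX11, COX17, SCO1 and SCO2, all higher, and 44.3% of all tested genes were. For the second knockout against the SLC30A10 control set, 4 of 10 were called, ATP7A, ATP7B and SLC31A2 higher and SCO1 lower, and 47.8% of all genes were. With both control sets pooled, ATP7A kept its call in the SLC30A10 knockout at 0.18 (edgeR adjusted p = 0.00893), among 4 of 10 genes called and 42.8% of all genes. In these exchanged comparisons the deletion and the experiment cannot be told apart.

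**Figure D2:**
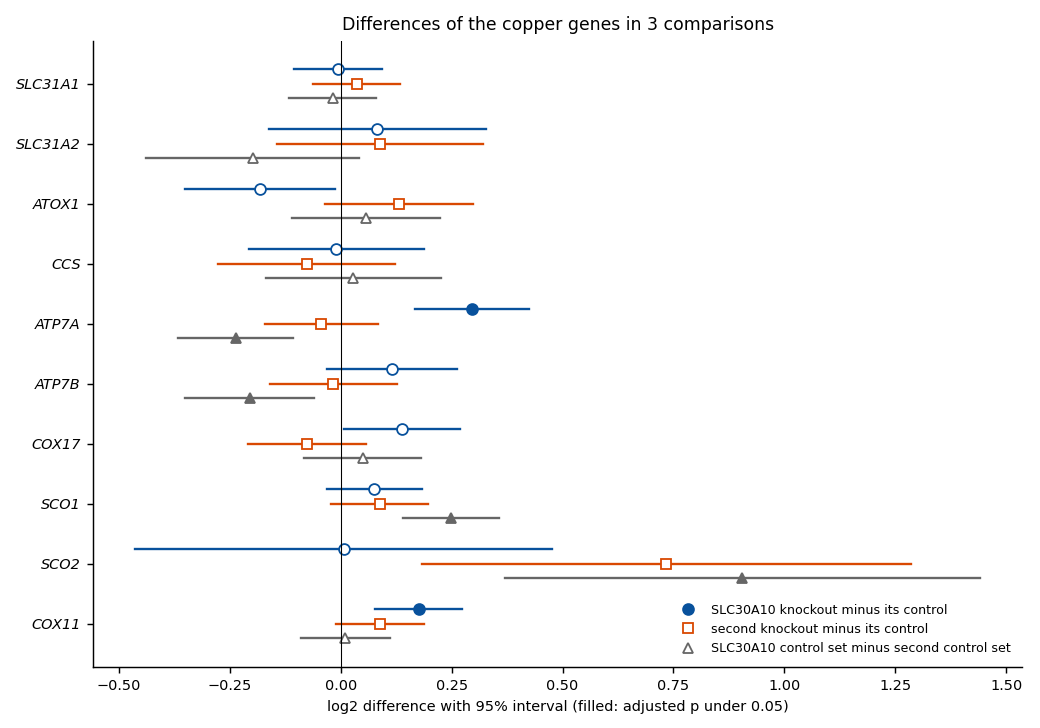
Log2 difference of each copper gene with its 95% interval, for the SLC30A10 knockout against its control set (circles), the second knockout against its control set (squares) and the control set of SLC30A10 minus the second (triangles); filled symbols have an edgeR adjusted p under 0.05. ATP7A lies at 0.30 in the SLC30A10 knockout and at -0.24 between the control sets, COX11 is the other filled circle at 0.18, and no square is filled.

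Genes around ATP7A were higher in the SLC30A10 knockout as well. On the X chromosome, 498 tested genes could be placed, and their median log2 difference in the SLC30A10 knockout was 0.36. Of these, 346 were called higher (69.5%), against 21.2% of all tested genes. Among the 10 nearest tested neighbours of ATP7A, 5 were called higher and 0 lower, with a median of 0.19. They were ATRX (0.39), a chromatin remodeller, MAGT1 (0.33), a subunit of the oligosaccharyltransferase, PGK1 (0.25), a glycolytic enzyme, COX7B (0.17), a subunit of complex IV, and ITM2A (1.35). In the second knockout the X chromosome had a median of -0.01, with 7.03% of its genes called higher. The part that the chromosome has in the difference of ATP7A was not tested. Against the second control set the X chromosome was as high in the SLC30A10 knockout, at a median of 0.33 with 68.5% called higher, although ATP7A was not. ATP7A also shares 97 bases of its transcript (1.14%) with PGK1 on the same strand. PGK1 had 10536 to 17221 counts per library, and it differed in the same directions as ATP7A in the SLC30A10 knockout and between the control sets (-0.36). The share of PGK1 reads in the ATP7A counts was not tested.

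**Figure D3:**
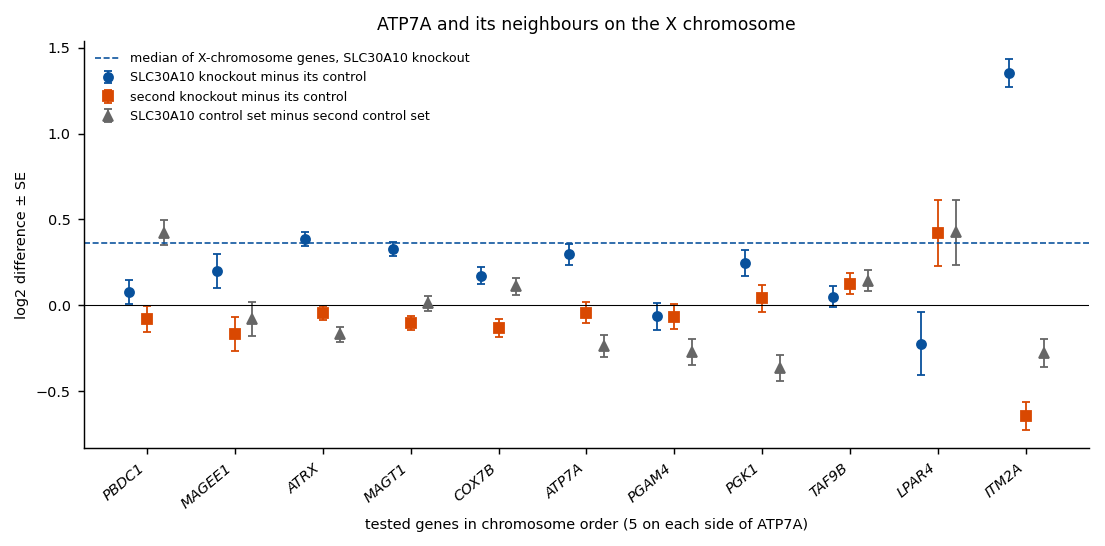
Log2 difference ± SE of ATP7A and the 5 tested genes on each side, in chromosome order, in 3 comparisons, with a dashed line at 0.36, the median of X-chromosome genes in the SLC30A10 knockout. In the SLC30A10 knockout (circles) ATP7A at 0.30 is flanked by COX7B at 0.17 and PGAM4 at -0.07, with ATRX at 0.39 further out, while in the second knockout (squares) the same genes lie close to 0 except ITM2A at -0.64 and LPAR4 at 0.42.

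The promoter of ATP7A is shown because the gene had the smallest adjusted p of the 10 in the SLC30A10 knockout against its own control set. Against the second control set it was not called. The bases from the start of the RefSeq window to the GENCODE gene start (chrX:77910443-77910655, plus strand, GRCh38.p14) read, with ETS cores in capitals:
ATP7A: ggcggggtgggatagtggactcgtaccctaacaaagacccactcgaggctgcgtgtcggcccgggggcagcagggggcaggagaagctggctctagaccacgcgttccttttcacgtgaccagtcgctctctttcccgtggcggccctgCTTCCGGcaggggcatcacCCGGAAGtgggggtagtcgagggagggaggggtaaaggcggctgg
The ETS core searched was CCGGAAG on both strands, and it occurs 2 times, once in each orientation. It is found in 8.52% of all windows. There was no match to the metal response core or the GC box in the window of ATP7A. A match or its absence describes these letters only.

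ATP7B, the pump mutated in Wilson disease, lies on chromosome 13 (chr13:51930436-52012125, minus strand). It had 18.8, 19.7, 18.1 and 19.4 CPM in the SLC30A10 knockout and 17.97, 16.5, 16.8 and 18.8 CPM in its control set. The groups overlapped, and the difference of 0.12 ± 0.07 was not called (edgeR adjusted p = 0.201). As for ATP7A, the SLC30A10 control libraries lay under the second control set, which had 20.7, 20.6, 19.6 and 19.9 CPM. That difference was -0.20 ± 0.07 (edgeR adjusted p = 0.023), and the call was lost without replicate 2 or 3 of the SLC30A10 control set or replicate 1 or 2 of the second control set. In the second knockout the values spread from 17.9 to 22.4 CPM, around its control set, at -0.02 ± 0.07. Within a library, ATP7A had 1.54 ± 0.110 times the counts of ATP7B in the SLC30A10 knockout and 1.36 ± 0.104 times in its control set (SD, n = 4).

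The balance of pump and chaperone followed from these values. The count of ATP7A divided by that of ATOX1 in the same library, which needs no scaling, was 1.43 to 2.08 in the SLC30A10 knockout and 1.00 to 1.38 in its control set. In the second experiment it was 1.19 to 1.52 in the knockout and 1.42 to 1.60 in the control set. The ratio of the importer SLC31A1 to ATP7A was 2.29 to 2.64 in the SLC30A10 knockout and 2.76 to 3.58 in its control set, and 2.48 to 2.75 in the second control set. The SLC30A10 knockout and the second control set thus overlapped in both ratios.

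COX17, which brings copper to both branches in the intermembrane space, had higher values in the SLC30A10 knockout that did not pass the adjusted test. The gene is on chromosome 3 (chr3:119654513-119677454, minus strand). Its values were 39.8, 36.4, 34.6 and 37.4 CPM in the knockout and 33.3, 35.7, 32.7 and 33.0 CPM in the control set. Only replicate 3 of the knockout lay under a control library, replicate 2. The difference was 0.14 ± 0.06 (edgeR adjusted p = 0.0871), and against the second control set it was 0.19 ± 0.06, which was called (edgeR adjusted p = 0.0197). The second knockout had 34.7, 31.0, 29.5 and 28.4 CPM against 34.6, 31.7, 30.2 and 33.8 CPM, a difference of -0.08 ± 0.06 that was not called. Its promoter is shown as an example of a gene for a mitochondrial protein with a metal response core. The bases before the GENCODE start (chr3:119677455-119677656, minus strand, GRCh38.p14) read, with the NRF1 core and the metal response core in capitals:
COX17: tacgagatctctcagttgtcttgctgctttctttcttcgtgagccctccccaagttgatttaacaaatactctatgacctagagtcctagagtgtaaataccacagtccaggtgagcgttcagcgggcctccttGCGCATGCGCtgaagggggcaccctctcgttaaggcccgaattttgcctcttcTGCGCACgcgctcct
The first run of capitals is the NRF1 core that was searched, which is its own reverse complement and is found in 1.03% of all windows. The other run is the metal response core, which occurs in 24.8% of all windows. It also occurs in the windows of ATOX1 and CCS and in a window of ATP7B. Another window of COX17 holds 1 metal response core and 4 GC boxes but no NRF1 core. NRF1 is a factor known for genes of the respiratory chain.

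SCO1, an acceptor of copper from COX17 (chr17:10672474-10698375, minus strand), was called between the control sets and in neither knockout. It had 77.4, 80.2, 74.2 and 80.9 CPM in the SLC30A10 knockout and 71.4, 72.9, 79.4 and 72.9 CPM in its control set, with overlap. The difference was 0.08 ± 0.05 (edgeR adjusted p = 0.254). The second control set had 61.1, 61.6, 59.5 and 67.3 CPM and the second knockout 72.3, 63.3, 62.005 and 67.4 CPM. Every SLC30A10 control library lay above every library of the second control set, by 0.25 ± 0.05 on the log2 scale (edgeR adjusted p = 0.000521). The second knockout differed from its control set by 0.09 ± 0.05, which was not called.

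SCO2, the partner of SCO1 in building the same copper centre, was near the limit of detection. The gene is on chromosome 22 (chr22:50523568-50526439, minus strand), and it had 8 to 24 counts per library, 262 in all. The second control libraries held 15, 9, 9 and 8 counts, and the second knockout libraries 15, 20, 17 and 16 counts. In CPM these were 0.918, 0.546, 0.542 and 0.486 against 0.935, 1.23, 1.03 and 0.969, so that the groups did not overlap, though only just. The log2 difference of 0.73 ± 0.27 did not pass (edgeR adjusted p = 0.0695). Without replicate 1 of the second control set it was 0.98 and passed (edgeR adjusted p = 0.0263). The SLC30A10 control set, with 1.16, 0.850, 1.22 and 1.46 CPM, lay above the second control set by 0.91 ± 0.26 (edgeR adjusted p = 0.00736). Only its replicate 2 fell under the highest library of the second control set. In the SLC30A10 knockout the difference was 0.01, with an interval of -0.46 to 0.48, so a moderate change was not detectable at this depth. SCO2 shares 499 bases of its transcript (50.3%) with an antisense gene, U62317.2, and 339 bases of its exons with TYMP on the same strand.

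COX11, which serves the other copper centre, rose in the SLC30A10 knockout. The gene lies on chromosome 17 (chr17:54951902-54968785, minus strand). Its values were 55.7, 59.6, 58.1 and 59.7 CPM in the knockout and 52.1, 52.8, 51.7 and 49.7 CPM in the control set. The groups did not overlap. The difference was 0.18 ± 0.05 on the log2 scale, a 1.13-fold rise (95% interval 1.05 to 1.21, edgeR adjusted p = 0.00446). It kept its call with each of the 16 libraries left out in turn. The control sets had 51.6 ± 1.35 and 51.2 ± 1.01 CPM (SD, n = 4), a difference of 0.01 with an interval of -0.09 to 0.11. Against the second control set the difference was 0.19 ± 0.05 (edgeR adjusted p = 0.00258). The second knockout had 51.2, 55.1, 52.6 and 59.0 CPM, with replicate 4 at the level of the SLC30A10 knockout. Its difference of 0.09 ± 0.05 was not called, and the effects of both knockouts on COX11 were not shown to differ (0.09, interval -0.05 to 0.23).

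The neighbours of COX11 gave no common direction. Of its 10 nearest tested neighbours, 3 were called higher and 3 lower in the SLC30A10 knockout, with a median of 0.02. COX11 shares 722 bases (28.9%) of its transcript with TOM1L1 and 59 bases with STXBP4, both on the opposite strand. TOM1L1 fell by 0.23 and STXBP4 by 0.39 on the log2 scale in that knockout, in the direction opposite to COX11. Reads within the shared bases cannot be told apart by gene if strand was not used.

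The wider copper system was followed through 88 genes in 7 lists, of which 80 were tested. In the SLC30A10 knockout, 31 of the 80 were called (38.8%, against 41.4% of all genes), 13 higher and 18 lower. Over all tested genes 21.2% were higher and 20.2% lower. In the second knockout it was 7 of 80 (8.75%), 1 higher and 6 lower, against 13.7% of all genes, 6.67% higher and 7.03% lower. Between the effects of both knockouts 29 of 80 were called (36.2%, against 31.3% of all genes), and between the control sets 25 (31.2%, against 39.3%). These shares are near or under those of all genes. Set against the second control set, 20 of the 31 genes called in the SLC30A10 knockout were called in the same direction, 2 in the opposite one (MOXD1 and LIAS) and 9 were not called. Of the 7 genes of the second knockout, 6 were called in the same direction against the SLC30A10 control set, and XIAP was not.

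Among the copper-using enzymes, 6 of 10 tested genes were called in the SLC30A10 knockout, 3 higher and 3 lower, against 41.4% of all tested genes, and 5 by DESeq2. SOD1 is given above. LOX, which crosslinks collagen and elastin after loading by ATP7A, fell from 39.8 ± 3.78 to 31.4 ± 2.06 CPM (log2 -0.34 ± 0.07, edgeR adjusted p = 0.000376), and its relative LOXL1 rose by 0.58 ± 0.13 (adjusted p = 0.000699, edgeR). Against the second control set LOX differed by -0.25 (edgeR adjusted p = 0.00707), while LOXL1 differed by 0.15 and was not called (edgeR adjusted p = 0.326). Of the other LOX relatives, LOXL2 (-0.53 ± 0.12) and LOXL4 (-1.05 ± 0.27) were called lower in the SLC30A10 knockout, and LOXL3 (-0.03) was not called. Both calls held against the second control set, at -0.96 for LOXL2 and -1.26 for LOXL4. LOXL4 had at most 24 counts in any library. In the second knockout MOXD1, a copper monooxygenase-like protein, fell from 18.9 ± 0.840 to 11.2 ± 0.343 CPM, by 0.76 on the log2 scale (edgeR adjusted p = 6.58e-08). Against the SLC30A10 control set the difference of MOXD1 was -0.25 (edgeR adjusted p = 0.0186). The remaining 7 genes of this list, among them DBH, SOD3 and TYR at 0 counts in every library, were not tested.

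For complex IV itself, 7 of 23 assembly factors were called in the SLC30A10 knockout, 3 higher and 4 lower, against 41.4% of all tested genes, and their median was 0.01. CMC2, an assembly factor of the intermembrane space, fell by 0.76 on the log2 scale (36.5 ± 1.98 to 21.6 ± 1.67 CPM), and COX15, which makes heme A, rose by 0.22. LRPPRC, which stabilises mitochondrial mRNAs, rose by 0.18. Of 12 nuclear subunits 3 were called: COX4I1 at -0.51 ± 0.05, COX7A2L at -0.26 ± 0.05 and COX7B at 0.17 ± 0.05. The second knockout had 4 of 23 assembly factors called (17.4%), 1 higher and 3 lower. Of all tested genes 13.7% were called there, 6.67% higher and 7.03% lower. Of the 12 subunits 0 were called there by edgeR and 0 by DESeq2, and 2 had an unadjusted p under 0.05. COX19, which acts with COX11, rose there by 0.32 ± 0.08 (edgeR adjusted p = 0.00583), and COA3 and CMC2 fell by 0.22 each. Both proteins that import the chaperones through disulfide formation, CHCHD4 and GFER, were tested, and neither was called in a knockout by edgeR or DESeq2. Of their tests, 1 in the second knockout had an unadjusted p under 0.05.

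Of the helpers of copper trafficking, 6 of 14 were called in the SLC30A10 knockout, 3 higher and 3 lower, against 41.4% of all tested genes. CCDC22, part of the complex that sorts ATP7A and ATP7B in endosomes, rose by 0.51 ± 0.08, and XIAP, which ubiquitinates CCS, by 0.35 ± 0.05. APP, a copper-binding membrane protein, fell by 0.31. Against the second control set CCDC22 was higher by 0.28 (edgeR adjusted p = 0.00502), and APP, at -0.09, was not called (edgeR adjusted p = 0.0929). The Golgi tether COG has been tied to the location of copper transporters. It had 3 of 8 members called (37.5%), against 41.4% of all tested genes. Of these 3 were lower and 0 higher, against 20.2% of all tested genes lower. The called members were COG4 (-0.59 ± 0.05), COG8 (-0.21 ± 0.07) and COG3 (-0.17 ± 0.06). Against the second control set COG4 kept its call at -0.53, while COG8 (0.03, edgeR adjusted p = 0.762) and COG3 (-0.07, edgeR adjusted p = 0.369) were not called. Genes of lipoylation and of the enzyme complexes that carry it, some of whose proteins bind copper in excess, had 6 of 11 called. Of these 3 were higher and 3 lower, against 41.4% of all tested genes called, and DESeq2 called 5. PDHA1 rose by 0.36, while GCSH fell by 0.58 and DLST by 0.27. In the second knockout XIAP (-0.16) and DLAT (-0.13) were called lower, XIAP not against the SLC30A10 control set (-0.06).

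Part of these calls lay on the X chromosome and on chromosome 16, which were singled out after the values were seen. All 4 tested list genes on the X chromosome (COX7B, CCDC22, XIAP and PDHA1) were higher in the SLC30A10 knockout. Of all placed genes on the X chromosome, 346 of 498 were called higher (69.5%). Of 8 on chromosome 16, 6 were lower and 0 higher (CMC2, COX4I1, C16orf62, COG4, COG8 and GCSH). Chromosome 16 as a whole had 199 of its 645 placed genes lower (30.9%), against 20.2% of all tested genes. Among the 68 list genes elsewhere, 21 were called (30.9%), 9 higher and 12 lower, against 41.4% of all tested genes on any chromosome. The share of all genes elsewhere was not computed. What part the chromosomes have in the list counts was not tested.

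**Figure D4:**
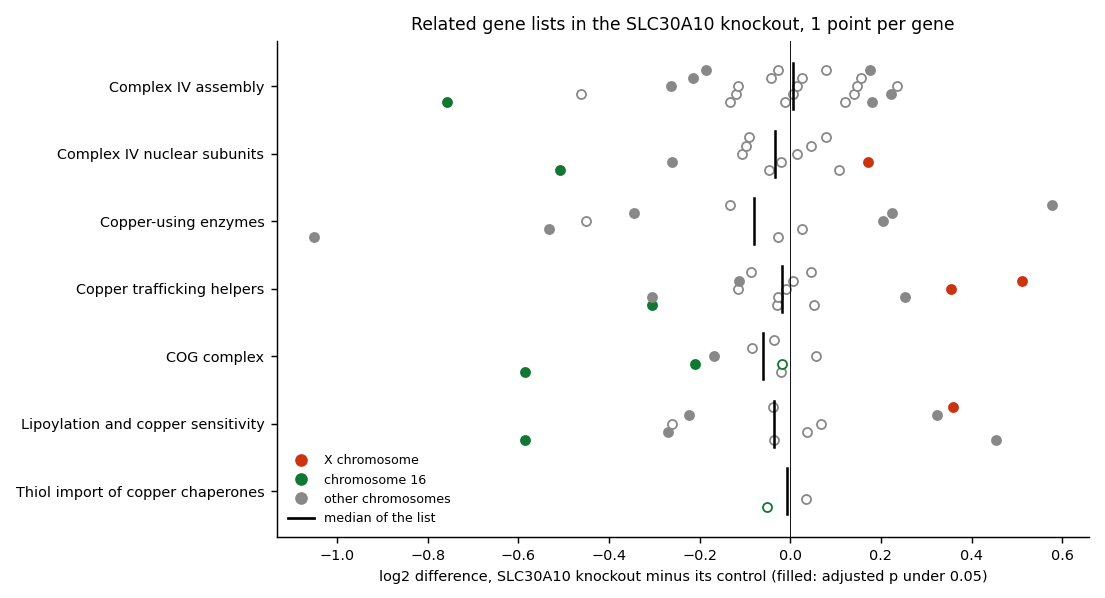
Log2 difference in the SLC30A10 knockout for each tested gene of the 7 related lists (points, filled where the edgeR adjusted p is under 0.05) with each list's median (bar); vertical offsets only separate points. X-chromosome genes lie between 0.17 and 0.51, the called chromosome 16 genes between -0.76 and -0.21, and the list medians between -0.08 and 0.01.

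The genes whose log2 CPM was most like that of ATP7A over the 16 libraries were ATP1B2, C4orf27 and RAP1GAP, each with a Pearson correlation of 0.92. For SCO2 they were SARS2 (0.80), ADRB1 (0.78) and THOP1 (0.78). These are descriptions over libraries that share 4 groups, chosen as the highest among all tested genes.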

How the data were processed

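RNA was measured in 16 libraries of HAP1 cells, grouped by the genotype and title in the labels. The gene deleted in the second knockout is not reported here. The authors deposited whole-number counts per gene symbol and a normalized signal, which equals those counts times a constant per library (largest deviation 5.13e-06) and served for an alternative scaling only. HISAT2, featureCounts, DESeq2 and the builds hg38 and GRCh38 are named in the submitters' processing notes, without versions or roles. The annotation and the use of strand are not given in the sources used here.

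The count tests used edgeR 4.0.16 under R 4.3.3. The expression filter (minimum count 10, minimum total 15) kept 15569 genes. After TMM scaling all 16 libraries entered one fit with a mean per group. Quasi-likelihood F tests were adjusted by the Benjamini-Hochberg method over all tested genes, with a threshold of 0.05. CPM are counts per 1000000 of scaled library size, given ± SD, and log2 differences are given ± SE or with a 95% interval. A total of 3 counts corresponded to 0.181 to 0.187 CPM, which covers counting error only. Replicate pairs differed by 1.64 to 6.83 chi-square units per degree of freedom, so none was treated as a repeat. Coordinates, transcript lengths and overlaps come from GENCODE v29 (GRCh38). Gene order and promoter windows come from RefSeq (GRCh38.p14), where 14156 tested genes were found. The table held windows for 7 of the 10 genes, not for SLC31A2, SCO2 and COX11. Mitochondrially encoded genes were not analysed here. The fit was tested on simulated counts.

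The 10 genes, the lists and the tests were chosen with earlier results of these data known. Named beside the 10 genes were up to 3 genes per list and knockout with the smallest adjusted p among those called, genes at 3 counts or less in every library, the 5 nearest tested neighbours on each side of a called copper gene, overlapping genes, and the 3 most correlated genes. LOXL2, LOXL3 and LOXL4 were named as well, as relatives of LOX and LOXL1. Alternatives were other scalings, the DESeq2 1.42.0 Wald test, other filters and thresholds, fits of only the libraries compared, a replicate block, pooled or exchanged control sets, and leaving out each library in turn.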

Additional observations from a re-analysis of the deposited data

Results flagged for a closer look

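The effects of the 2 knockouts on ATP7A and on ATOX1 differed by a test of the difference itself, which called 31.3% of all tested genes. For ATP7A the effect in the SLC30A10 knockout minus that in the second knockout was 0.34 ± 0.09 on the log2 scale (edgeR adjusted p = 0.00398), from effects of 0.30 and -0.04. For ATOX1 it was -0.31 ± 0.12 (edgeR adjusted p = 0.0395), from effects of -0.18 and 0.13, neither of which passed on its own. The ATOX1 call was lost when any of 8 of the 16 libraries was left out singly (edgeR adjusted p up to 0.0983). The ATP7A difference includes that between the control sets, where the SLC30A10 set minus the second was -0.24 ± 0.06 (edgeR adjusted p = 0.00395). Against the second control set the SLC30A10 knockout differed in ATP7A by 0.06 ± 0.06 (edgeR adjusted p = 0.466).

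A single library stood apart from the other 3 of its group in 2 of 40 combinations of gene and group, and chance gives about 2 of 40. CCS in replicate 1 of the second knockout was the lowest, at 10.7 CPM against 13.2 to 13.7 CPM, with a gap of 0.837 of the group's range. SCO2 in replicate 1 of the second control set was the highest, at 0.918 CPM against 0.486 to 0.546 CPM, a gap of 0.862.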

How the results depend on the processing

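The copper genes called numbered 2 in the SLC30A10 knockout, 0 in the second knockout, 2 for the difference of effects and 4 between the control sets. Of the other settings, those with median-of-ratios, deposited and total-count scaling, the DESeq2 Wald test or no filter gave the same counts. Fits of only the libraries compared did so too, but were not run for the difference of effects. A mean count of at least 50 left SCO2 untested and gave 3 between the control sets. Requiring a fold of 1.5 left 0, 0, 0 and 1, and an adjusted p under 0.01 left 1 for the difference of effects and 3 between the control sets, without ATP7B. Pooled control sets gave 4 in the SLC30A10 knockout, and exchanged control sets gave 4 in each knockout. Leaving out 1 library gave 2 to 3, 0 to 1, 1 to 3 and 3 to 4. The additional calls were ATOX1 in the SLC30A10 knockout without its replicate 1 (-0.24, edgeR adjusted p = 0.0317), SCO2 without replicate 1 of the second control set (0.98 in the second knockout and -0.97 for the difference), and COX17 for the difference without replicate 1 of the second knockout (0.26, edgeR adjusted p = 0.0213).

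Apart from the exchanged control sets, signs changed only for values that were not called. SCO2 in the SLC30A10 knockout was -0.0061 with library totals alone. With pooled control sets SLC31A2 was -0.017 and CCS 0.0040 in the SLC30A10 knockout, and ATP7A was 0.075, ATP7B 0.085 and SCO1 -0.037 in the second. With 1 library left out, the ranges that spanned 0 were, in the SLC30A10 knockout, -0.028 to 0.015 for SLC31A1, -0.094 to 0.066 for CCS and -0.126 to 0.124 for SCO2. In the other knockout they were -0.072 to 0.037 for ATP7B and -0.109 to 0.0025 for CCS. For the difference of effects they were -0.094 to 0.077 for SLC31A2, -0.021 to 0.140 for CCS and -0.052 to 0.023 for SCO1, and between the control sets -0.032 to 0.017 for SLC31A1. The cause of these changes was not tested.

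Same-numbered libraries did not deviate together (mean correlations from -0.029 to 0.038, and 0 to 3 of 8 libraries correlated best with their own number), so the numbers were not taken to pair them. With the replicate block the copper genes called were again 2, 0, 2 and 4, and the related genes 33, 8, 28 and 25 against 31, 7, 29 and 25. Set against the control set of the other experiment, an alternative chosen after seeing the data, the related genes called were 39 of 80 for SLC30A10 and 32 of 80 for the other knockout. Of all tested genes 44.3% and 47.8% were called in these comparisons. At 8 to 24 counts per library, depth limits SCO2 most.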
